A study of Homo sapiens with 6 samples.

Results

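The genes described here are the 9 that carry peptides to the cell surface on MHC class I molecules: the class I heavy chains *HLA-B*, *HLA-C* and *HLA-E*, the shared light chain *B2M*, the peptide transporter subunits *TAP1* and *TAP2*, the loading factor *TAPBP* (tapasin), and the peptide-trimming enzymes *ERAP1* and *ERAP2*. They were taken from the deposited table by gene symbol, and each symbol matched 1 row, giving 9 of 20381 genes. The 3 heavy chains are not the complete set of human class I heavy chains. RNA-seq of poly(A) RNA was carried out on HCCLM3, an established human hepatocellular carcinoma (HCC) cell line with little *PON1* RNA of its own. *PON1* encodes paraoxonase 1, an enzyme that the liver secretes and that circulates on high-density lipoprotein. The PON1-OE group carried the full-length human *PON1* coding sequence delivered by lentivirus, and the negative control group (NC) carried empty-vector lentivirus. Both groups were kept under puromycin as stable lines according to the study's methods, although the design text of the series gives a time after transfection. There were 3 libraries in each group. The sources used here do not say where the replicate libraries came from (infections, cultures or RNA preparations), nor whether the lines were clones or pools. The p-values below therefore measure only the spread between these libraries, which may be technical.

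Class I molecules display fragments of proteins made inside the cell. The proteasome and cytosolic peptidases cut the proteins, the TAP1-TAP2 transporter pumps the fragments into the endoplasmic reticulum (ER), ERAP1 and ERAP2 shorten them further, and tapasin holds the empty heavy chain and its B2M light chain next to the transporter until a peptide fits. The finished complex is read at the cell surface by CD8+ T cells and, in the case of HLA-E, mainly by receptors on natural killer (NK) cells. In hepatocytes, class I expression is known to be low at rest and inducible by interferon, and loss of parts of this pathway is a known route by which tumors escape T cells.

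In GENCODE v29 (GRCh38), 6 of the 9 genes lie on the short arm of chromosome 6, in the MHC region. *HLA-E* (ENSG00000204592) spans chr6:30489467-30494205 on the plus strand. *HLA-C* (ENSG00000204525) spans chr6:31268749-31272130 on the minus strand. *HLA-B* (ENSG00000234745), also on the minus strand, is annotated at chr6:31269491-31357188, a span that runs over *HLA-C*, with which it shares 35 exonic bases. *TAP2* (ENSG00000204267, chr6:32821833-32838780, minus strand), *TAP1* (ENSG00000168394, chr6:32845209-32853978, minus strand) and the immunoproteasome genes *PSMB8* and *PSMB9* together occupy 37.8 kb inside the class II region. *TAPBP* (ENSG00000231925) spans chr6:33299694-33314387 on the minus strand. *B2M* (ENSG00000166710) lies at chr15:44711487-44718877 on the plus strand. *ERAP1* (ENSG00000164307, chr5:96760810-96808100, minus strand) and *ERAP2* (ENSG00000164308, chr5:96875939-96919716, plus strand) are separated by 67.8 kb and point away from each other.

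The class I genes are known for a compact promoter in which an NF-kappa-B site, an interferon-stimulated response element (ISRE) and CCAAT boxes lie close to the start. Promoter windows from RefSeq (GRCh38.p14), which hold 250 bases before and 50 after a gene's start, were found for 8 of the 9 genes, all but *HLA-E*. The upstream stretches of *HLA-B* (chr6:31357189-31357429, minus strand), *HLA-C* (chr6:31272131-31272342, minus strand) and *B2M* (chr15:44711267-44711486, plus strand) are printed because they show this layout in the heavy and the light chain. They are written 5′ to 3′ on the strand of the gene, and capitals mark letters that match an NF-kappa-B-like motif, an ISRE-like motif (a pair of GAAA with a short gap), the class I form of the ISRE (GAAGTGAAA), or CCAAT, each searched on both strands.
HLA-B: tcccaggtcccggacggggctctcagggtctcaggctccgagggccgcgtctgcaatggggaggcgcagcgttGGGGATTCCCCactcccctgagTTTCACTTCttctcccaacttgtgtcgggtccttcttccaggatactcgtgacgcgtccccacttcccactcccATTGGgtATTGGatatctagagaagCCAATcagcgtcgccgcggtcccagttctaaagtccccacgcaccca
HLA-C: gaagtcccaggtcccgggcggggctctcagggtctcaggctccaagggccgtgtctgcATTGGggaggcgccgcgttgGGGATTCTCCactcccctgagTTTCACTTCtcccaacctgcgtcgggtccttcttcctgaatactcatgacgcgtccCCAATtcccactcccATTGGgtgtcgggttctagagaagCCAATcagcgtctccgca
B2M: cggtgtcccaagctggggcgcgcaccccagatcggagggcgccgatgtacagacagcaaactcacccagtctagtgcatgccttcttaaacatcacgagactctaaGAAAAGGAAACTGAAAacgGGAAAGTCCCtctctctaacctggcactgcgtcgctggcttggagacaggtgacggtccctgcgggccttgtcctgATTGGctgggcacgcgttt

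The windows of *HLA-B* and *HLA-C* were near copies of each other, with 226 of 254 aligned columns identical over the 250 bases before the start (89.0%). In both, an NF-kappa-B-like match stood upstream of a GAAGTGAAA match on the reverse strand, the latter beginning 155 bases before the start in *HLA-B* and 151 bases in *HLA-C*. In *B2M* the order was the other way round, with overlapping ISRE-like matches beginning 144 and 138 bases before the start and an NF-kappa-B-like match at 125 bases. The ISRE-like motif was also present before a RefSeq start of *TAP1*, *TAP2*, *TAPBP* and *ERAP2*. Those of *TAP1*, *TAPBP* and *ERAP2* lie inside the GENCODE span of the gene, which begins further upstream. The short sites follow with that match in capitals (*TAP1* chr6:32853818-32853843, *TAP2* chr6:32838783-32838802 and *TAPBP* chr6:33314079-33314103 on the minus strand, *ERAP2* chr5:96876465-96876484 on the plus strand).
TAP1: gccgcTTTCGATTTCGCTTTCcccta
TAP2: gaagcGAAAGCGAAAgctgc
TAPBP: tggagGAAAGTGAAAGTGAAAggag
ERAP2: gaacaGAAAGTGAAAgcaaa

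The ISRE-like motif was thus found in 5 of the 8 member genes with a window. Some genes have more than 1 start, and counted by window it was found in 5 of 11 member windows, beside 3.02% of all 35116 promoter windows. GAAGTGAAA was found in *HLA-B* and *HLA-C* and in 0.44% of all windows, and the NF-kappa-B-like motif in *B2M*, *HLA-B*, *HLA-C* and *TAP1* and in 4.46%. CCAAT was found in 5 member genes (*B2M*, *ERAP1*, *HLA-B*, *HLA-C* and *TAP1*), but it is a short motif that 32.01% of all windows hold. *TAP1* alone among the members held TTCNNNGAA, which 6.57% of all windows hold. TGACG, the core of a CREB/ATF site, was found in *B2M*, *HLA-B*, *HLA-C* and *TAP2* and in 21.22% of all windows. In *HLA-B* the NF-kappa-B-like motif matched on both strands at overlapping positions, beginning 177 and 176 bases before the start. The motifs were chosen with the sequences in view, and a match describes letters, not binding.

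The libraries held 15706672 to 17948383 estimated counts, where CPM below is the count scaled to the library total after TMM scaling. The limit that a count of 0 allows (3 counts) was 0.166 to 0.192 CPM, for counting error only. *PON1* had 0, 2 and 3 counts in NC, against 155, 181 and 167 counts in PON1-OE, the direction that the labels give. The PON1-OE level was 9.44, 11.3 and 10.7 CPM, which is moderate, as the median gene tested had a mean of 479 counts. The HCCLM3 label was also compared with cell type markers. *HNF4A* (72.5 to 82.5 CPM), *KRT8* and *KRT18* were expressed, while *ALB*, *AFP*, *APOA1*, *TTR* and *SERPINA1*, which define mature or fetal hepatocytes, were at most 1.10 CPM in any library. *TF* (17.9 to 23.2 CPM) and *APOB* (3.75 to 6.24 CPM), which hepatocytes also secrete, were detected in every library. Of 12 leukocyte markers, 8 had 0 counts in every library, among them *PTPRC*, *CD3E*, *CD2*, *MS4A1*, *LYZ*, *NKG7* and *GNLY*. *CD68*, a lysosomal protein, was the only leukocyte marker abundant enough to be tested, and the defining markers of T, B and NK cells were at or near 0. Of 9 endothelial and fibroblast markers, 3 were tested (*PECAM1*, *KDR* and *DCN*, fitted log2 fold changes of 0.21, 0.23 and 0.25) and none had an unadjusted p under 0.05.

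The comparison of PON1-OE with NC asked whether the class I presentation genes were expressed at another level when *PON1* was overexpressed. All 9 genes were expressed in every library, with mean counts from 518 (*HLA-B*) to 10187 (*B2M*), and all 9 passed the filter on low counts. With p-values from edgeR's quasi-likelihood fit adjusted by Benjamini-Hochberg over 11958 genes, 0 of 9 had an adjusted p under 0.05, where 0.677% of all genes tested did. With the fold threshold of the study's methods (1.5) in addition, the count was 0 of 9 against 0.0502%. At an unadjusted p under 0.05 the count was also 0 of 9, against 11.1% of all genes tested, and limma-voom gave 0 of 9 at both thresholds. DESeq2 gave 0 of 9 at the unadjusted threshold and 0 of 7 at the adjusted one, since it set no adjusted p for *HLA-B* and *ERAP2*. Of the 9 fitted log2 fold changes (PON1-OE over NC), 4 were positive and 5 negative. Their median was -0.0074, beside -0.0025 over all genes tested, and the largest in size was 0.11. In bulk RNA, fewer cells that express a gene and less of its RNA per cell cannot be told apart.

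**Figure D1:**
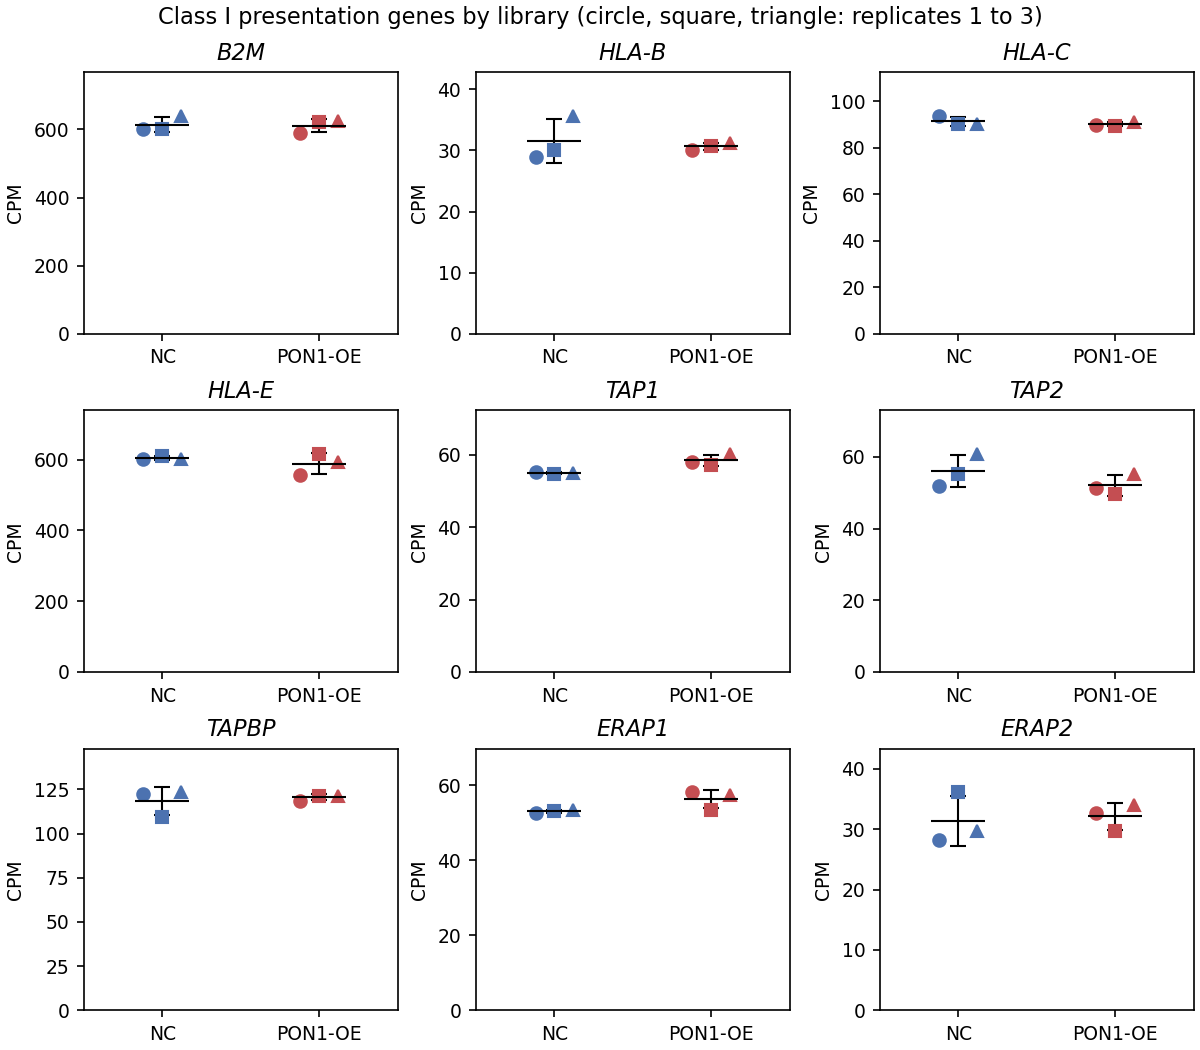
The vertical axis of each panel, from 0, is the level in CPM, and each point is a library of the NC group (blue) or the PON1-OE group (red), with circle, square and triangle for replicates 1 to 3. Horizontal bars are group means and error bars the SD (n = 3). The groups overlap for 7 of the 9 genes, while the 3 PON1-OE points stand above the 3 NC points for *TAP1* and *ERAP1*.

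*B2M* encodes the invariant light chain without which class I heavy chains do not leave the ER. It measured 602, 602 and 640.0 CPM in NC and 589, 622 and 623 CPM in PON1-OE. The third NC library was the highest and the first PON1-OE library the lowest, and the groups overlapped. The fitted log2 fold change was -0.0074 (SE 0.036, adjusted p = 0.966 by edgeR's quasi-likelihood test), with a 95% interval of 0.944 to 1.05 as a fold.

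*HLA-E*, the heavy chain that presents signal peptides of other class I molecules to NK cells, was as abundant as *B2M* in counts. It measured 603, 611 and 601 CPM in NC and 556, 616 and 594 CPM in PON1-OE. The NC libraries lay close together, and within PON1-OE the first library was low, giving an SD of 30.1 CPM where counting error alone would give 6.06 CPM. The groups overlapped, with a log2 fold change of -0.040 (SE 0.037, adjusted p = 0.761, edgeR). Without the first PON1-OE library it was 0.0029.

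*HLA-C*, a classical heavy chain that also serves as the main ligand of killer-cell immunoglobulin-like receptors, measured 93.8, 90.4 and 90.1 CPM in NC and 89.8, 89.4 and 91.1 CPM in PON1-OE. Its 6 values spanned less than 5 CPM and overlapped, and the spread within each group was no larger than counting error (SD 2.04 and 0.878 CPM, against 2.31 and 2.37 CPM). The log2 fold change was -0.021 (SE 0.047, adjusted p = 0.915, edgeR).

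*HLA-B*, the most polymorphic of the classical heavy chains in human populations, was the least abundant of the 3 at 28.9, 30.1 and 35.7 CPM in NC and 30.1, 30.7 and 31.3 CPM in PON1-OE. The third NC library stood above the rest, and all 3 PON1-OE values fell inside the NC range. The log2 fold change was -0.039 (SE 0.080, adjusted p = 0.905, edgeR), and it was 0.057 without the third NC library. Heavy chain genes resemble each other: 2.40% of the 50-base windows of the *HLA-B* transcript, 6.71% of those of *HLA-C* and 5.13% of those of *HLA-E* occur word for word in another gene of the annotation. Levels of these genes are therefore less certain than that of *B2M*, which shared none. The deposited counts of *HLA-B*, *HLA-C* and *TAPBP* were not whole in any of the 6 libraries, and those of *TAP2* were not whole in 4. Those of *HLA-E*, *B2M*, *TAP1*, *ERAP1* and *ERAP2* were whole in all 6. Fractional counts were thus seen in genes with shared windows and also in *TAPBP*, which shared 0 windows. Whether they came from shared sequence was not tested. Reads moved between the 3 rows would leave their sum as it is, and the sum of *HLA-B*, *HLA-C* and *HLA-E* had a log2 fold change of -0.038 (SE 0.035, adjusted p = 0.761, edgeR).

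*TAP1* and *TAP2* encode the subunits of the transporter, which works only as a pair. *TAP1* measured 55.2, 54.7 and 54.9 CPM in NC and 58.0, 57.3 and 60.2 CPM in PON1-OE. The lowest PON1-OE value exceeded the highest NC value, with a mean difference of 6.47%, and the exact permutation test over libraries gave p = 0.1, the smallest that 3 against 3 allows. Every gene whose groups do not overlap gets this p, so it only restates the lack of overlap, here and for *ERAP1* below. The fitted log2 fold change was 0.090 (SE 0.055, adjusted p = 0.584, edgeR). The NC values of *TAP1* were closer together (SD 0.223 CPM) than counting error alone gives (1.79 CPM), so the gap between the groups stands beside an NC spread below counting error.

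*TAP2* measured 52.0, 55.1 and 60.8 CPM in NC and 51.3, 49.7 and 55.2 CPM in PON1-OE. NC replicate 3 was the highest and PON1-OE replicate 2 the lowest, and the groups overlapped, since PON1-OE replicate 3 was above NC replicates 1 and 2. The log2 fold change was -0.11 (SE 0.065, adjusted p = 0.596, edgeR). The count of *TAP2* is open to another reading, because 35.6% of its 50-base windows also occur elsewhere, almost all of them in an overlapping readthrough gene (ENSG00000250264) with 2064 shared exonic bases. That row held 0, 29 and 0 counts in NC, against 11, 7 and 12 counts in PON1-OE, few beside the 794 to 1037 counts of *TAP2* itself, and with both rows summed the log2 fold change was -0.10 (adjusted p = 0.609, edgeR).

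*TAPBP*, which bridges the transporter and the empty heavy chain, measured 123, 109 and 123 CPM in NC and 118, 121 and 122 CPM in PON1-OE. The second NC library was low and the other 5 lay within a few CPM of each other. The log2 fold change was 0.024 (SE 0.049, adjusted p = 0.905, edgeR), and it was -0.031 without the second NC library.

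*ERAP1*, the aminopeptidase that trims long precursors to the length class I molecules hold, measured 52.7, 53.1 and 53.4 CPM in NC and 58.1, 53.5 and 57.3 CPM in PON1-OE. The groups did not overlap (exact permutation p = 0.1), although the second PON1-OE library lay next to the highest NC library. The log2 fold change was 0.085 (SE 0.057, adjusted p = 0.633, edgeR), and here too the NC spread (SD 0.370 CPM) was below counting error (1.76 CPM). *ERAP1* and *CAST* on the opposite strand share 299 exonic bases, and *TAP1* and *PSMB8-AS1* share 456. The use of strand in counting was not given in the sources used here, so reads from these stretches cannot be told apart.

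*ERAP2*, a related aminopeptidase with a preference for other terminal residues, measured 28.2, 36.2 and 29.7 CPM in NC and 32.8, 29.7 and 34.0 CPM in PON1-OE. The second NC library was the highest of all and the first the lowest, so the NC group enclosed the PON1-OE group. The log2 fold change was 0.034 (SE 0.087, adjusted p = 0.929, edgeR). Its sign depended on single libraries, and it ranged from -0.036 to 0.15 as each of the 6 was left out.

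In all, 2 of 9 genes were higher in every PON1-OE library than in every NC library, where 8.32% of all genes tested were, and 0 of 9 were lower in every PON1-OE library, against 7.74%. In either direction this is 2 of 9, beside 16.1% of all genes tested. Among the NC libraries, replicate 3 had the highest value of 5 genes (*B2M*, *ERAP1*, *HLA-B*, *TAP2* and *TAPBP*), and among the PON1-OE libraries replicate 3 had the highest value of 7 (the exceptions were *HLA-E* and *ERAP1*).

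**Figure D2:**
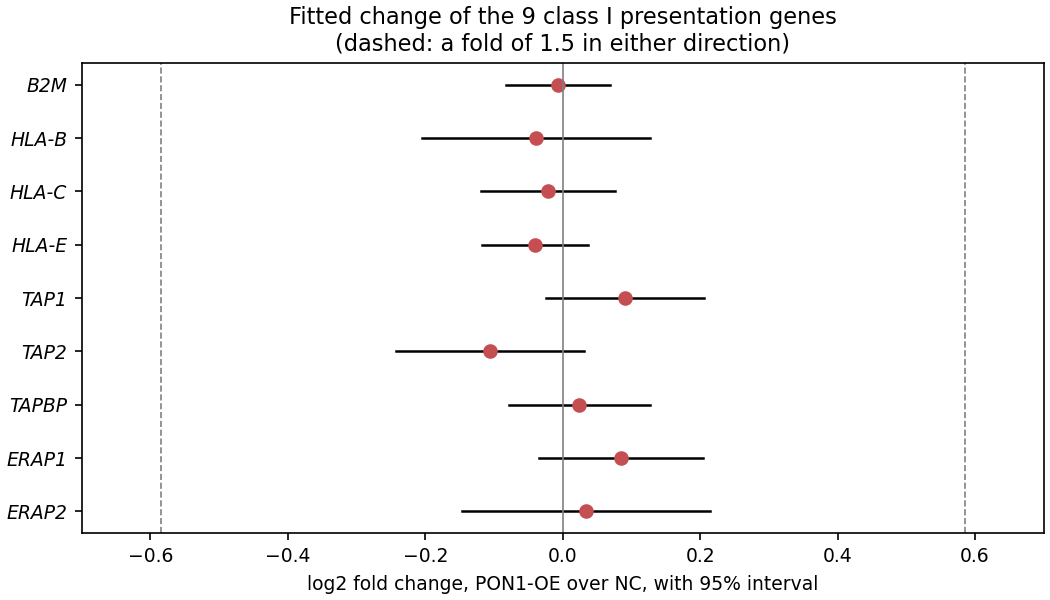
The horizontal axis is the fitted log2 fold change (PON1-OE over NC). Points are the 9 genes and lines their 95% intervals from edgeR's quasi-likelihood fit (3 libraries in each group), and dashed lines mark a fold of 1.5 in either direction, the threshold of the study's methods. All 9 intervals include 0 and lie between -0.24 and 0.21.

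How large a change the data leave room for can be read from the intervals. Over the 9 genes, the lowest 95% bound was a fold of 0.846 (*TAP2*) and the highest a fold of 1.16 (*ERAP2*). The fold threshold of the study's methods, 1.5, lay outside every interval in both directions. The intervals were narrowest for *HLA-E* (0.922 to 1.03) and *B2M*, which had the most counts, and widest for *ERAP2* (0.903 to 1.16) and *HLA-B* (0.867 to 1.09), which had the fewest.

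Levels between genes were compared per length, as CPM per kilobase of the coding transcript with the longest coding sequence in GENCODE v29. The light chain came first, with 359.5 ± 11.0 CPM per kilobase for *B2M* (SD, n = 6 libraries), followed by *HLA-E* with 229 ± 8.22. *TAPBP* (63.3 ± 2.75) and *HLA-C* (58.4 ± 1.02) came next, and their ranges over libraries overlapped (58.0 to 65.4 and 57.5 to 60.4 CPM per kilobase). *HLA-B* followed with 28.6 ± 2.16 and *TAP1* with 19.2 ± 0.736 CPM per kilobase. *ERAP1* (9.95 ± 0.434) and *TAP2* (9.52 ± 0.700) did not differ beyond their spread, and *ERAP2* was last with 5.57 ± 0.533 CPM per kilobase. All other neighbors in this order were separate in all 6 libraries. The highest and lowest levels differed by 64.6-fold, and the nonclassical *HLA-E* made up 72.6% ± 0.725 (SD, n = 3) of the summed per-kilobase level of the 3 heavy chains in NC and 72.4% ± 0.987 in PON1-OE. This share also depends on the lengths used. By counts, without any length, it was 83.1% ± 0.413 in NC and 82.9% ± 0.709 in PON1-OE.

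**Figure D3:**
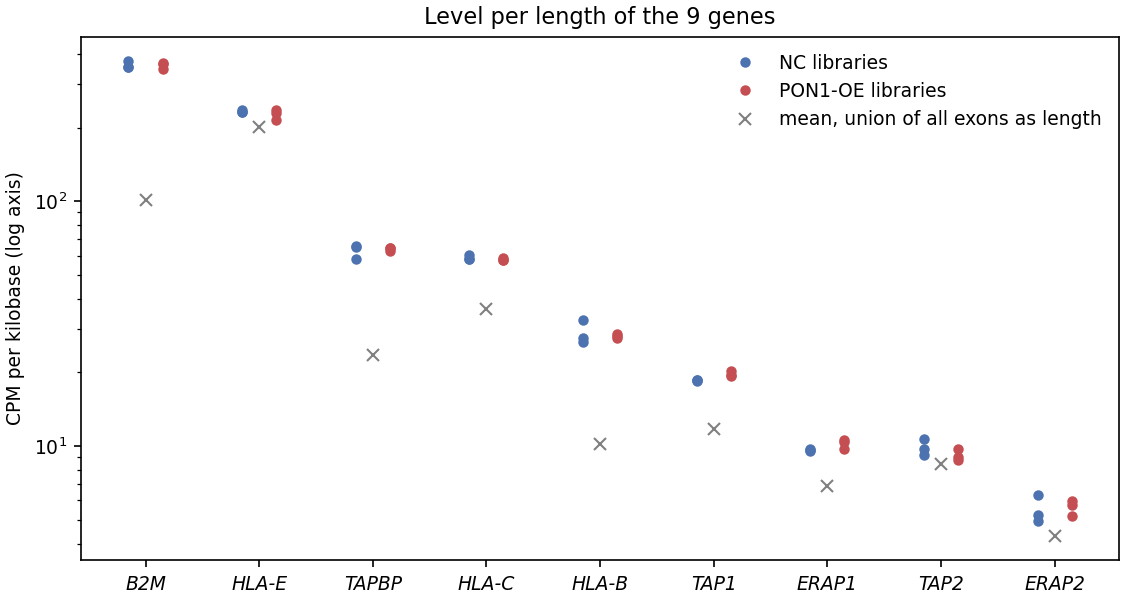
The vertical axis (log scale) is the level in CPM per kilobase, and points are single libraries of NC (blue) and PON1-OE (red) for each gene. Grey crosses are means when the union of all annotated exons is used as the length, which puts *HLA-E* (201) above *B2M* (101).

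The order depended on the length used. With the union of all exons of a gene, *HLA-E* (201 CPM per kilobase) stood above *B2M* (101) and *HLA-C* (36.2) above *TAPBP* (23.6), since *B2M* and *TAPBP* have long alternative exons in the annotation. The transcript picked for *HLA-B* holds coding sequence only (1089 bases). With its longest coding transcript (1547 bases) the level of *HLA-B* was 20.1 CPM per kilobase, close to the 19.2 of *TAP1*. The same choice lowered *TAPBP* to 31.8 CPM per kilobase, below the 58.4 of *HLA-C*.

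Ratios between partners were taken within each library, where scaling cancels, and are given as a description without a test. *B2M* over the sum of the 3 heavy chains, per kilobase, was 1.11, 1.10 and 1.17 in NC, against 1.15, 1.13 and 1.16 in PON1-OE. Light chain RNA thus slightly exceeded the RNA of these heavy chains in every library, and the groups overlapped. With the union of exons as the length the same ratio was 0.394 to 0.422, so its position relative to 1 rests on the annotation.

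*TAP1* over *TAP2*, in counts, was 1.06, 0.993 and 0.903 in NC, against 1.13, 1.15 and 1.09 in PON1-OE. All 3 PON1-OE libraries were above all 3 NC libraries, by 0.19 on the log2 scale, and this was 0.13 to 0.25 as single libraries were left out. With the readthrough row added to *TAP2* the difference was also 0.19. *ERAP1* over *ERAP2* was 1.87, 1.47 and 1.80 in NC, against 1.78, 1.80 and 1.68 in PON1-OE, with overlap.

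The immunoproteasome exchanges the catalytic subunits of the standard proteasome for *PSMB8*, *PSMB9* and *PSMB10*, which favors peptides that fit class I molecules. *PSMB8* over its constitutive counterpart *PSMB5*, in counts, was 0.227, 0.257 and 0.237 in NC, against 0.305, 0.276 and 0.296 in PON1-OE. These groups did not overlap either, with a difference of 0.28 on the log2 scale, to which a higher *PSMB8* (0.18) and a lower *PSMB5* (-0.10) both contributed. *PSMB9* over *PSMB6* (0.0717 to 0.0943) and *PSMB10* over *PSMB7* (0.123 to 0.150) overlapped between the groups. Per kilobase, the inducible subunits stayed below their constitutive counterparts in every library, at most 0.351 for *PSMB8*.

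**Figure D4:**
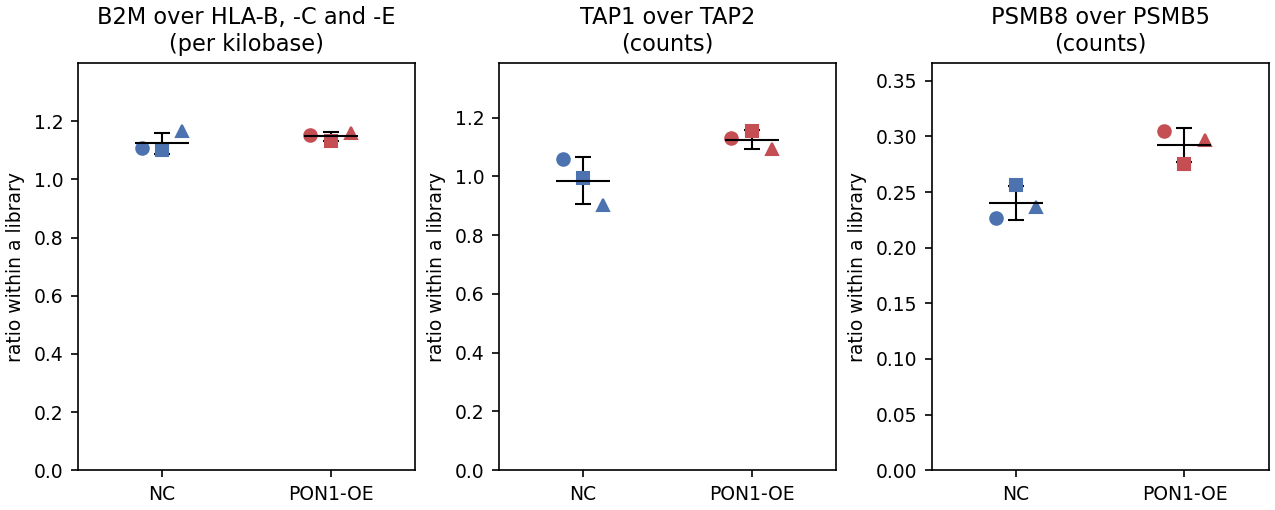
The vertical axis of each panel, from 0, is a ratio within a library, and points are libraries (blue NC, red PON1-OE, with circle, square and triangle for replicates 1 to 3). Bars are means with the SD (n = 3). The *B2M* to heavy chain ratio overlaps between groups (1.10 to 1.17 and 1.13 to 1.16), while *TAP1* over *TAP2* and *PSMB8* over *PSMB5* are higher in all 3 PON1-OE libraries.

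The 4 neighbors *TAP2*, *PSMB8*, *TAP1* and *PSMB9* sit in the block at chr6:32821833-32859585, where the annotated span of *PSMB9* encloses *TAP1*. Their fitted log2 fold changes were -0.11 (*TAP2*), 0.18 (*PSMB8*), 0.090 (*TAP1*) and -0.0020 (*PSMB9*). None had an adjusted p under 0.05. The nearest class II genes of the lists used here were *HLA-DQB1* on the *TAP2* side (153 kb away) and *HLA-DMB* on the *PSMB9* side. Both had 0 counts in all 6 libraries, so that expression of the block stood out from them. *HLA-DMA*, just beyond *HLA-DMB*, had 11 to 17 counts. Class II genes outside the lists were not examined.

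The rest of the pathway was described with 9 lists of 96 genes, of which 80 passed the filter. By edgeR's quasi-likelihood test, 0 of 80 had an adjusted p under 0.05, and limma-voom gave 0 as well. DESeq2 gave 0 of the 42 for which it set an adjusted p. At an unadjusted p under 0.05 there were 9, 6 with a positive and 3 with a negative log2 fold change, which is 11.2% of those tested, beside 11.1% of all genes tested. Groups that did not overlap, with PON1-OE higher, were seen in 11 of 80 genes (13.8%, against 8.32% of all genes), with PON1-OE lower in 4 of 80 (against 7.74%), and in either direction in 15 of 80 (18.8%, against 16.1%). The genes named below had the smallest unadjusted p in their list or illustrate a level.

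Among 9 genes of ER loading and quality control, 8 had a positive log2 fold change. The median of the 9 was 0.040, beside -0.0025 over all genes tested, and the values ran from -0.026 to 0.17. Whether these genes moved together was not tested. Only the protein disulfide isomerase *P4HB* had an unadjusted p under 0.05 (2469, 2408 and 2398 CPM in NC, 2520, 2581 and 2516 in PON1-OE, log2 fold change 0.066, adjusted p = 0.406, edgeR). *CALR*, *CANX* and *PDIA3*, whose products assist the heavy chain in the ER, had log2 fold changes of -0.026, 0.0066 and 0.045.

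Of the 5 immunoproteasome and PA28 genes, 2 were positive and 3 negative (median -0.0020). *PSMB8* measured 22.7, 25.5 and 23.6 CPM in NC and 27.1, 27.9 and 26.3 CPM in PON1-OE, a log2 fold change of 0.18 without overlap (SE 0.077, adjusted p = 0.396, edgeR). *PSME1* and *PSME2*, which form the PA28 activator, were at -0.031 and -0.030. None of the 3 constitutive catalytic subunits had an unadjusted p under 0.05. Among 6 cytosolic peptidases, only *NPEPPS* did, at a log2 fold change of -0.088 (adjusted p = 0.395, edgeR).

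**Figure D5:**
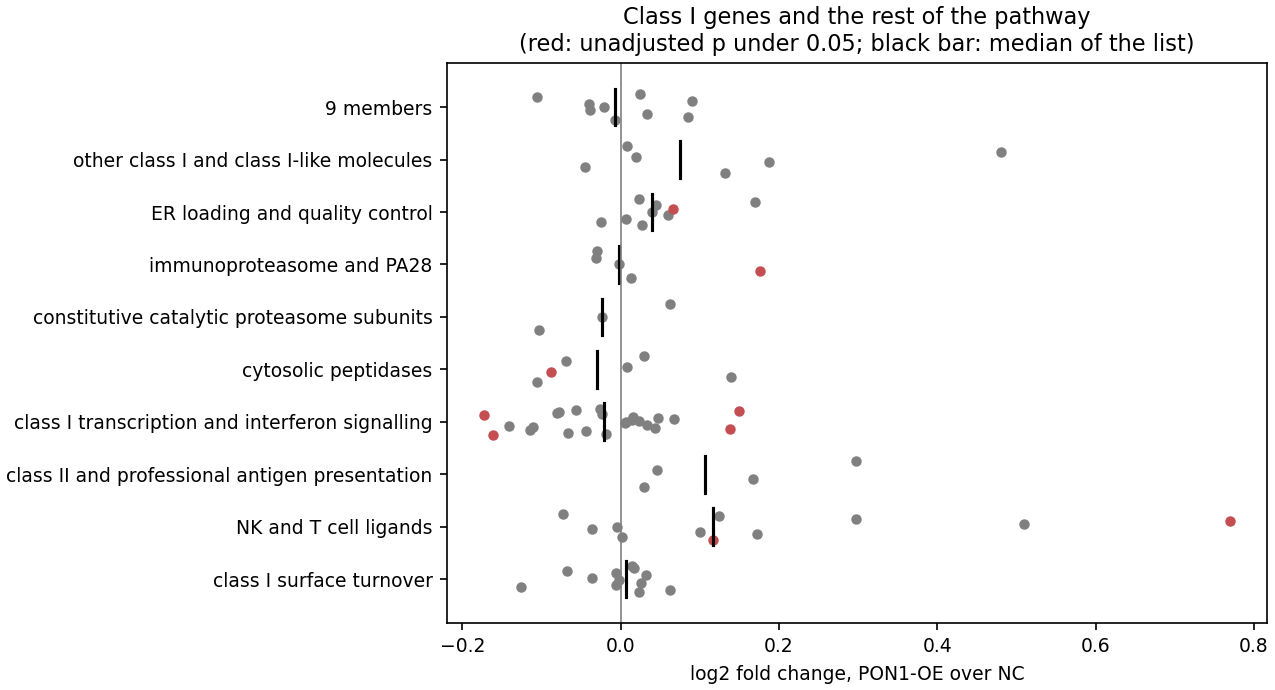
The horizontal axis is the fitted log2 fold change (PON1-OE over NC) of each gene tested, by list, with the 9 class I genes in the top row. Red marks an unadjusted p under 0.05, grey the rest, and black bars are list medians, which run from -0.031 (cytosolic peptidases) to 0.12 (NK and T cell ligands).

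Class I genes are switched on by *NLRC5*, which acts through the RFX complex on the promoters shown above, and by interferon signaling. *NLRC5* measured 17.1, 17.7 and 20.1 CPM in NC and 17.7, 18.1 and 20.9 CPM in PON1-OE, with a log2 fold change of 0.047 (SE 0.095, adjusted p = 0.905, edgeR). *RFX5*, the DNA-binding subunit of the RFX complex, measured 56.9, 54.1 and 59.4 CPM in NC and 51.1, 51.0 and 49.0 CPM in PON1-OE. All PON1-OE values of *RFX5* were below all NC values, with a log2 fold change of -0.17 (SE 0.059, adjusted p = 0.239, edgeR).

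*IFNGR2*, the signaling chain of the interferon-gamma receptor, was on the other side, at 150.5, 150.2 and 153 CPM in NC and 167, 157 and 175 CPM in PON1-OE (log2 fold change 0.14, SE 0.044, adjusted p = 0.215, edgeR). *ATF1*, which binds a site next to the RFX site, had a log2 fold change of -0.16 (adjusted p = 0.350, edgeR). In the whole list of 24 tested regulators, 4 had an unadjusted p under 0.05 by edgeR, where 11.1% of all genes tested did. These were 2 in each direction (the other was the kinase *TYK2*, log2 fold change 0.15). Of the 24, 11 had a positive and 13 a negative value, with a median of -0.021.

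The relay from the interferon receptors was represented by *JAK1* at 197 to 209.9 CPM, *STAT2* at 24.1 to 31.3 CPM and *IRF9* at 6.64 to 8.54 CPM. *IRF1*, a direct activator of class I and TAP promoters, measured 126 to 137 CPM, with a log2 fold change of 0.044 (SE 0.045, adjusted p = 0.794, edgeR). None of these 4 genes had an unadjusted p under 0.05.

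Class II genes set a contrast in the same MHC region. Of the 12 genes of class II and professional antigen presentation, 8 were removed by the filter, and 7 of them had 0 counts in all libraries (*HLA-DRA*, *HLA-DRB1*, *HLA-DPA1*, *HLA-DQA1*, *HLA-DQB1*, *HLA-DMB* and *HLA-DOA*). A count of 0 allows up to 0.192 CPM in the shallowest library. *CIITA*, the class II counterpart of *NLRC5*, measured 0.545 to 1.23 CPM, the invariant chain *CD74* 0.731 to 1.47 CPM and *HLA-DMA* 0.608 to 1.09 CPM. Only the lysosomal protease *CTSS* was abundant, at 115 to 129 CPM. None of the 4 genes tested had an unadjusted p under 0.05.

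The 6 other class I and class I-like molecules that could be tested covered a wide range. *PROCR* (104 to 119.8 CPM) and *FCGRT* (64.2 to 69.2 CPM), class I-like proteins that do not present peptides to T cells, were above several members. *HLA-F* measured 3.06 to 3.77 CPM, and *HLA-G* had 1 count in 1 library and 0 in the other 5. *MR1*, which presents vitamin B metabolites, measured 2.12, 1.88 and 1.82 CPM in NC and 2.68, 2.63 and 2.81 CPM in PON1-OE. The groups of *MR1* did not overlap, with a log2 fold change of 0.48 (SE 0.233, adjusted p = 0.454, edgeR), and it was named after its values were seen. None of the 6 genes tested in this list had an unadjusted p under 0.05.

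Among 14 ligands of NK and T cells, *CD276* had a log2 fold change of 0.12 (adjusted p = 0.284) and *RAET1L* of 0.77 (adjusted p = 0.428), both by edgeR. *RAET1L* had few counts, at 17, 18 and 12 in NC, against 35, 25 and 15 in PON1-OE, and its groups overlapped. *RAET1G* of the same list, with 4, 6 and 5 counts in NC, against 1 in each PON1-OE library, was too low to be tested. Sequence shared between the genes of this list was not measured. *CD274*, which encodes PD-L1, was too low to be tested (0.121 to 0.511 CPM). None of the 12 tested genes of class I surface turnover had an unadjusted p under 0.05, and their median log2 fold change was 0.0062.

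The genes whose profile over the 6 libraries was most like that of 3 members were found by the root-mean-square difference of centered log2 CPM among 10575 genes. They were *TSPAN15*, *CHEK1* and *FAM168A* for *HLA-B* (0.024 to 0.029), *DHRS3*, *CHCHD3* and *EMC3* for *B2M* (0.012 to 0.014), and *LAMC1*, *ARL6IP1* and *NFATC2* for *TAP1* (0.0075 to 0.013). None of the nearest genes of a member was another member.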

How the data were processed

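Poly(A) RNA-seq of 3 PON1-OE and 3 NC libraries of HCCLM3 was analyzed. The authors deposited 1 table of estimated counts per gene without normalization, of which 10.5% were not whole numbers. The submitters' processing notes name Bowtie2 2.2.8, HISAT2, StringTie 1.3.1 and DESeq2, and the build and annotation are not given in the sources used here. Estimated counts were rounded and analyzed in R 4.3.3. The design had been written for counts, and rounding was the only step added. After filterByExpr, 11958 genes remained, TMM factors scaled the libraries, and PON1-OE was tested against NC without covariates by edgeR 4.0.16 (glmQLFit, glmQLFTest), with Benjamini-Hochberg adjustment over all genes tested. The SE of a log2 fold change was its size divided by the square root of F. Exact permutation tests over libraries were two-sided. Libraries of a group differed by more than sampling noise (chi-square per degree of freedom 2.11 to 4.11). Scripts were tested on simulated data. Some genes of the lists are not reported here.

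Positions, exons and lengths came from GENCODE v29 on GRCh38, and promoter windows from RefSeq (GRCh38.p14). Whether this is the annotation the counts were made with is unknown. The members, lists and motifs were chosen with earlier results of these data known. The named genes were all members, up to 3 genes of each list with the smallest unadjusted p under 0.05, any list gene with an adjusted p under 0.05, *PON1*, and the 3 nearest profiles of *HLA-B*, *B2M* and *TAP1* among genes with a mean of at least 50 counts (prior count 2). Of the liver markers, *APOB* came under this rule (log2 fold change -0.36, adjusted p = 0.443), as did *CD68* of the leukocyte markers (0.13, adjusted p = 0.252). Other genes are named to illustrate a level or where marked. Alternatives were the replicate number as a block, a minimum of 10 counts per library or no minimum, RLE size factors, DESeq2 1.42.0, limma-voom (limma 3.58.1), each library left out in turn, summed rows and other lengths.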

Additional observations from a re-analysis of the deposited data

How the results depend on the processing

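No alternative gave a member an adjusted p under 0.05, and the lowest adjusted p over all alternatives was 0.373 (*HLA-E* without the second PON1-OE library). DESeq2 set no adjusted p for *HLA-B* and *ERAP2*. At an unadjusted p under 0.05 the count of members ranged from 0 to 2 as single libraries were left out: 1 without the first NC library (*TAP2*) and 2 without the second PON1-OE library (*HLA-E* and *ERAP1*). The median log2 fold change of the members ranged from -0.029 to 0.023. Signs changed only when a library was left out: *ERAP2* was -0.036 without the first NC, -0.0043 without the third NC and -0.0081 without the third PON1-OE library, *TAPBP* was -0.031 without the second NC library, *HLA-B* was 0.057 and *B2M* 0.023 without the third NC library, and without the first PON1-OE library *B2M* was 0.023 and *HLA-E* 0.0029. Over the 6 libraries left out in turn, *HLA-B* ranged from -0.098 to 0.057, *HLA-E* from -0.073 to 0.0029, *B2M* from -0.023 to 0.023, *TAPBP* from -0.031 to 0.055 and *ERAP2* from -0.036 to 0.15. *HLA-C*, *TAP1*, *TAP2* and *ERAP1* kept their sign under all 12 alternatives run for each member. In the lists, the count at an adjusted p under 0.05 ranged from 0 to 1, and the gene was *IFNGR2* without the second PON1-OE library (log2 fold change 0.18, adjusted p = 0.0462, edgeR). The ratio of the highest to the lowest level per length was 46.9 with the union of exons in place of 64.6. With the replicate number as a block, 0 members had an adjusted or an unadjusted p under 0.05 and the median log2 fold change was -0.0072. Deviations of libraries with the same number correlated at 0.051, -0.16 and -0.091 over 10576 genes, and those with unlike numbers at -0.24 to 0.29. Libraries with the same number were thus not more alike. These values cannot show whether libraries were handled in pairs, which is not given. The block changed no call.

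With 3 libraries in each group, changes of the size fitted for *TAP1*, *TAP2* and *ERAP1* (0.085 to 0.11 in size) were under 2 SE of their fits (SE 0.055 to 0.065) and cannot be told from 0 here. The heavy chain levels rest on how reads from similar genes, and from the alleles of this line, were assigned, which was not tested. RNA level says nothing of class I protein at the cell surface.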
